A study of Mus musculus with 24 samples.

Results

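Chil3, Retnla, Lyz2, Mmp12, Gpnmb, Adgre1 and Cd68 are 7 genes used to describe macrophages, and they were followed over 24 RNA libraries of mouse CD11c+ cells. They are 7 of the 12767 genes in the table, and all 7 were among the 12749 genes tested. The genes were chosen by name, and their level in these libraries was part of that choice, so ranks and levels below are description and are not tested. The study asked how the intestinal bacterium LGG and an antibody against the checkpoint receptor PD-1 act on dendritic cells, with and without Myd88, the adaptor of most Toll-like receptors. The mice carried MC38, a mouse colon carcinoma line, under the skin, and the cells came from the mesenteric lymph nodes, which drain the intestine, by CD11c magnetic beads. Labelled Myd88 knockout mice (KO) given the combination of anti-PD-1 and LGG, LGG alone, anti-PD-1 alone or control IgG made up 4 groups, and wild-type mice (WT) given the same made up the other 4, each of 3 libraries. All mice were C57BL/6 females of 6 to 8 weeks per the labels, antibodies were given at 200 µg per mouse 2 times a week for 2 to 3 weeks, and LGG was given by mouth. LGG alone is labelled without an antibody and IgG with one, so LGG against IgG also compares the presence of a control antibody. Nothing in the labels ties replicates to separate mice, so p-values measure the spread between these libraries, which may be technical.

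Macrophages exposed to interleukin-4 or interleukin-13 enter a state called alternative activation, in which STAT6 switches on genes such as Chil3, Retnla, Arg1 and Mrc1. Interferon-gamma and microbial ligands drive the opposite, classical state, whose mark in the mouse is Nos2. CD11c is carried by dendritic cells and also by many tissue macrophages, so a CD11c bead selection can hold both.

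Several properties of the libraries bear on every value below. Itgax, which encodes CD11c, lay between 33061 and 53698 normalised counts in KO libraries and between 9637 and 25427 in WT libraries. Genes of dendritic cells differed widely in level. Zbtb46, a transcription factor of conventional dendritic cells, lay between 192.5 and 458.2 in KO and between 390.3 and 2323 in WT, and Flt3, a cytokine receptor, between 5.84 and 56.7 in KO and between 85.2 and 675.7 in WT. The antigen presentation gene Cd74, which macrophages also express, averaged 99246 in KO IgG and 107770 in WT IgG libraries. Myd88 itself lay between 697.3 and 1837 in KO and between 1723 and 2232 in WT, so the ranges overlapped. That value counts the whole gene, and the labels do not say which part was deleted. The Y-linked gene Ddx3y lay between 1241 and 2136 in KO and between 0 and 4.50 in WT, although all mice are labelled female, so genotype and sex cannot be told apart here. On the second principal component KO anti-PD-1 replicates 2 and 3 scored -16.5 and 51.3 and KO LGG replicate 2 scored 46.0, while the other 9 KO libraries scored -1.11 to 25.2. Calls that changed without these 3 libraries are given beside the comparison. That setting leaves only replicate 1 in the KO anti-PD-1 group, so comparisons with that group are given there as effect sizes only. Reads in listed genes numbered 24531528 to 49272593 per library.

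Chil3 encodes the secreted chitinase-like protein Ym1, which binds sugars without cutting chitin. It lies on the minus strand of chromosome 3 from 106147554 to 106167564 in mm10. Retnla encodes the secreted resistin-like molecule alpha, also called FIZZ1, and lies on the plus strand of chromosome 16 from 48842551 to 48844461. Lyz2, on the minus strand of chromosome 10 from 117277331 to 117282321, encodes lysozyme M of myeloid cells. Mmp12, on the plus strand of chromosome 9 from 7344381 to 7369499, encodes macrophage elastase. Gpnmb, on the plus strand of chromosome 6 from 49036546 to 49070929, encodes a transmembrane glycoprotein found in lysosome-rich macrophages. Adgre1, on the plus strand of chromosome 17 from 57358691 to 57483527, encodes F4/80, and Cd68, on the minus strand of chromosome 11 from 69664213 to 69666153, encodes macrosialin of late endosomes. Values of these genes cover their exons, whose union is 599 bases for Retnla and 7237 bases for Mmp12, at the extremes. Of the 50-base windows in Chil3 transcripts, 26.9% recur in other genes, most in Chil4, and 15.4% of those in Lyz2 recur in Lyz1, so reads there may have been split or dropped in counting. Chil4 averaged 835.1 and 1104 normalised counts in KO LGG and KO IgG libraries and 51.7 and 378.3 in WT LGG and WT IgG libraries. Lyz1 averaged at most 17.4, in KO anti-PD-1 libraries. Mmp12 shares 157 exonic bases with Mmp1b on the opposite strand, and whether counting used strand is not given in the sources used here.

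Promoter windows of 250 bases before to 50 after the annotated start are shown for 4 genes. These genes passed the threshold with LGG alone against IgG in both genotypes. Gpnmb moved in opposite directions there, and its KO call was not firm. No result below rests on the letters of the windows. The windows are RefSeq sequences of GRCm38.p6, which is mm10, written 5′ to 3′ on the gene's strand. Capitals mark matches to 5 letter patterns searched on both strands: TTCNNNNGAA for STAT6, GAGGAA for PU.1, TTGCNNAA for C/EBP, CACGTG for an E-box and TGANTCA for AP-1. The windows are chr3:106167515-106167814 (minus) for Chil3, chr16:48842359-48842658 (plus) for Retnla, chr10:117282223-117282522 (minus) for Lyz2 and chr6:49036268-49036567 (plus) for Gpnmb.
Chil3: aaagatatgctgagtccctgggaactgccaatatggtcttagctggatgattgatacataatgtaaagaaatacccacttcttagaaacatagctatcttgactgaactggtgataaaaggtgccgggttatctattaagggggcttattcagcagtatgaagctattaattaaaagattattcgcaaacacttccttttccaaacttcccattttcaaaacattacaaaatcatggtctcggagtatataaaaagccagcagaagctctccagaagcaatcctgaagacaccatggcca
Retnla: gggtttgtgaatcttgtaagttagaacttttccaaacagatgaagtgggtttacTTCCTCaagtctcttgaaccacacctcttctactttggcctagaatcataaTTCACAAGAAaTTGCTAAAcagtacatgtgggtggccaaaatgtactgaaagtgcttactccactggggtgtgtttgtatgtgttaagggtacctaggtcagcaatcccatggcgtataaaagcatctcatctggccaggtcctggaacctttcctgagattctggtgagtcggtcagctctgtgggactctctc
Lyz2: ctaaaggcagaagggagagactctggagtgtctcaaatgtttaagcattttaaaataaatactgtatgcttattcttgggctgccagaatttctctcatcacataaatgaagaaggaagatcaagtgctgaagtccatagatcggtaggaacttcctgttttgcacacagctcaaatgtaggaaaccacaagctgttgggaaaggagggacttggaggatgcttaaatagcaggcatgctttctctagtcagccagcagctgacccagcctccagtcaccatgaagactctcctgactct
Gpnmb: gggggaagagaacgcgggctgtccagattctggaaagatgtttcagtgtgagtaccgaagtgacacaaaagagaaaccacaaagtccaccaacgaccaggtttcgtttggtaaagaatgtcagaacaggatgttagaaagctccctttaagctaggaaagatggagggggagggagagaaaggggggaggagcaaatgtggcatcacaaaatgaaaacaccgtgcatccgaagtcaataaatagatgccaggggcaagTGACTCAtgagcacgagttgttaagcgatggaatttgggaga
The Retnla window held TTCACAAGAA, a match for STAT6, 145 bases before the start, and next to it a C/EBP match 134 bases before the start, and a PU.1 match on the other strand. The Gpnmb window held an AP-1 match, while none of the 5 patterns was found in the windows of Chil3 and Lyz2. The Cd68 window held 2 PU.1 matches, 1 C/EBP match and 2 AP-1 matches, the first Mmp12 start a PU.1 and a C/EBP match, and the second Mmp12 start an AP-1 match. Among 32851 promoters of the same length, 6.95% held the STAT6 pattern, 28.3% the PU.1 pattern, 10.8% the C/EBP pattern, 7.15% the E-box and 7.81% the AP-1 pattern. A match is a run of letters and not a measured site.

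Levels compared between genes are given per kilobase of exon. Chil3 was the most abundant of 12759 genes with a length, at 581744 normalised counts per kilobase averaged over the 24 libraries. Lyz2 followed at rank 7 with 144544, Mmp12 at rank 27 with 47297, Gpnmb at rank 38 with 31281 and Cd68 at rank 142 with 11841. Retnla at rank 1049 with 1433 and Adgre1 at rank 1210 with 1248 were far lower. Chil3 was at rank 1 per kilobase in all 4 KO groups and in WT anti-PD-1 and WT IgG, and at rank 20 in WT combination and 22 in WT LGG. Among the 10 genes with the highest mean count were Psap and Ctsd, which serve lysosomes, and Ccl6, a chemokine.

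The 7 genes together held 7.62% ± 0.19 of the listed reads in KO combination, 6.82% ± 0.25 in KO LGG, 7.66% ± 1.27 in KO anti-PD-1 and 8.82% ± 0.96 in KO IgG libraries (SD, n = 3 each). In WT they held 1.23% ± 0.02 with the combination, 1.05% ± 0.003 with LGG, 5.17% ± 0.08 with anti-PD-1 and 4.46% ± 0.07 with IgG. The WT libraries with LGG, alone or combined, were the lowest, and no other library came near them. Chil3 alone held 3.26% in KO LGG and 5.61% in KO IgG libraries, against 0.293% in WT LGG and 2.57% in WT IgG libraries. A fall of this kind in bulk samples can mean fewer cells of a type or less RNA per cell, which cannot be told apart.

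**Figure D1:**
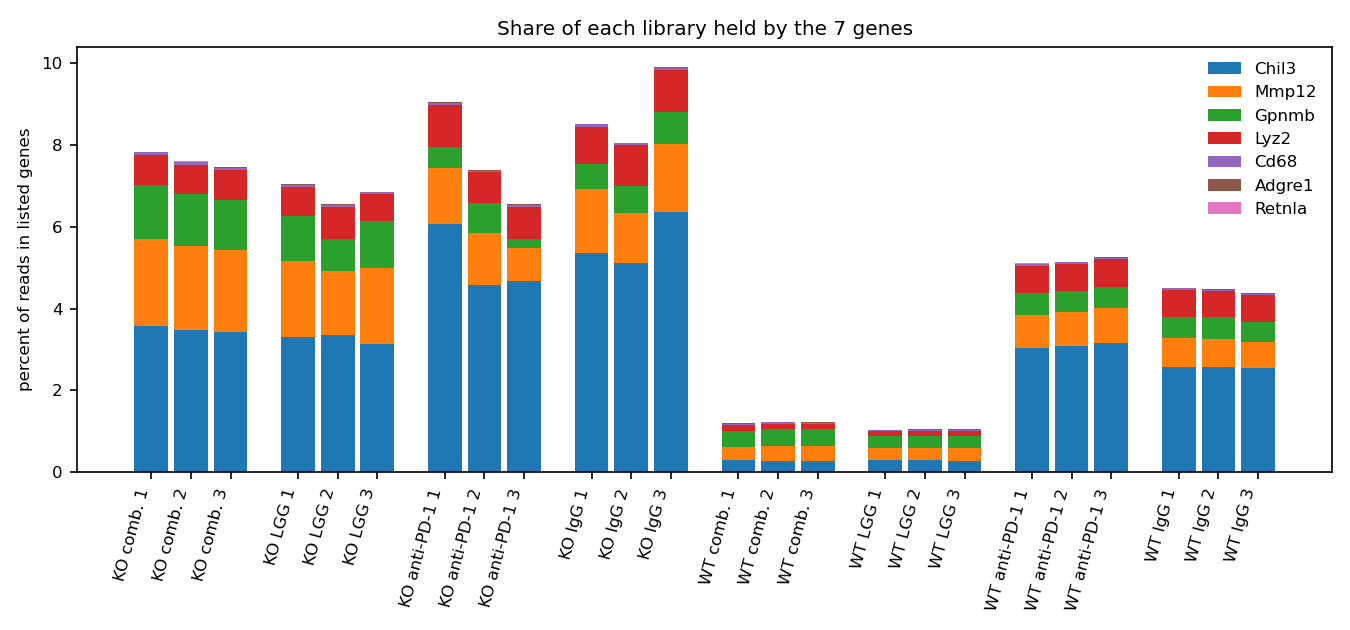
Percent of the reads in listed genes held by each of the 7 genes, stacked, 1 bar per library, with KO groups on the left and WT groups on the right (comb. is anti-PD-1 plus LGG). The 6 WT libraries with LGG hold 1.04% to 1.24% in all, the lowest of the 24.

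Chil3 reached 1181547, 1138386 and 1128275 normalised counts in KO combination, 1040026, 1231257 and 967798 in KO LGG, 2191456, 1340794 and 1951613 in KO anti-PD-1 and 1723710, 1655943 and 2090660 in KO IgG libraries. In WT libraries it reached 87176, 83465 and 82527 with the combination, 91424, 91382 and 83807 with LGG, 829637, 825401 and 872984 with anti-PD-1 and 704635, 684328 and 707515 with IgG. Both KO groups with LGG lay below both KO groups without it, all KO libraries lay above all WT libraries, and WT libraries with LGG were lowest by far. Retnla, the second alternative activation gene, had 240.6, 227.1 and 272.9 normalised counts in KO combination, 311.2, 560.9 and 242.2 in KO LGG, 1705, 668.8 and 4006 in KO anti-PD-1 and 1211, 1217 and 986.5 in KO IgG libraries. In WT it had 110.3, 76.4 and 65.8 with the combination, 95.9, 65.8 and 104.3 with LGG, 1158, 987.5 and 1096 with anti-PD-1 and 1701, 1636 and 1859 with IgG. Unlike Chil3, Retnla in KO IgG libraries was below all WT IgG libraries, and KO anti-PD-1 spread over a wide range.

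Lyz2 had 244522, 233428 and 235902 normalised counts in KO combination, 226636, 282384 and 198940 in KO LGG, 365597, 220040 and 330278 in KO anti-PD-1 and 290112, 323186 and 339522 in KO IgG libraries. In WT it had 36919, 34928 and 34091 with the combination, 35491, 35452 and 31613 with LGG, 183535, 175431 and 183144 with anti-PD-1 and 177736, 168787 and 177606 with IgG. KO LGG and KO IgG did not overlap, though KO LGG replicate 2 came close, and in WT the LGG groups lay far below the rest.

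Mmp12 had 706791, 671851 and 660958 normalised counts in KO combination, 587141, 572592 and 575762 in KO LGG, 489766, 375030 and 341188 in KO anti-PD-1 and 496968, 398616 and 545118 in KO IgG libraries. In WT it had 99078, 101901 and 102332 with the combination, 92197, 93603 and 88396 with LGG, 219397, 221973 and 229877 with anti-PD-1 and 187399, 181820 and 175119 with IgG. In KO the libraries with LGG were the highest and in WT they were the lowest. Gpnmb had 434732, 421936 and 409146 in KO combination, 341662, 284614 and 355428 in KO LGG, 187791, 215363 and 91154 in KO anti-PD-1 and 199711, 213254 and 250284 in KO IgG libraries. In WT it had 119082, 123794 and 123617 with the combination, 89592, 88667 and 90634 with LGG, 142386, 140959 and 145371 with anti-PD-1 and 143641, 140602 and 137006 with IgG. Gpnmb followed the same order as Mmp12 in KO, and in WT it was lowest with LGG alone.

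Adgre1 and Cd68 varied least. Adgre1 had group means of 3523 normalised counts in KO combination, 3790 in KO LGG, 2831 in KO anti-PD-1 and 3521 in KO IgG libraries, against 5808, 4366, 4258 and 4237 under the same treatments in WT. Its highest libraries were WT combination, at 5513, 5933 and 5977. Cd68 averaged 20847, 20147, 19019 and 18692 in KO libraries with the combination, LGG, anti-PD-1 and IgG, against 10404, 9077, 10263 and 10626 in WT. Every KO library, at 13581 or more, lay above every WT library, at 11184 or less, and the KO treatments overlapped each other.

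**Figure D2:**
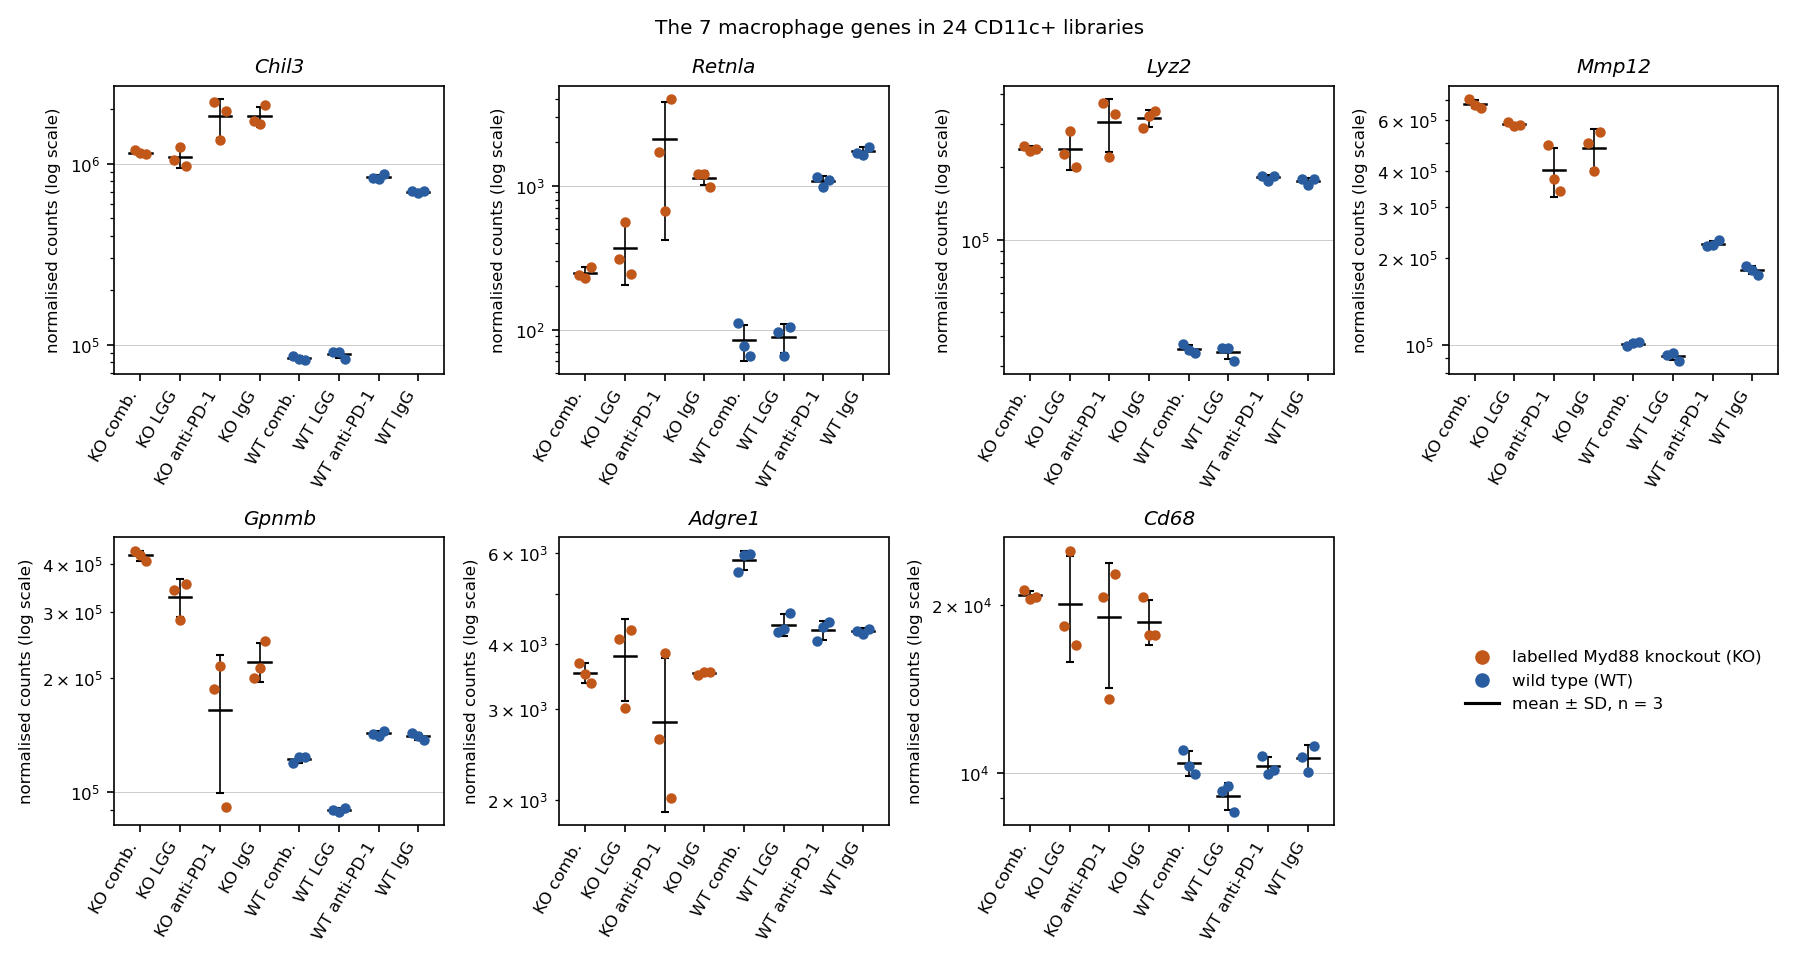
Normalised counts of each gene on a log scale, 1 panel per gene and 1 point per library, KO in orange and WT in blue, with the mean and SD of the 3 libraries as black lines. Chil3, Lyz2 and Retnla drop in WT libraries with LGG, while Mmp12 and Gpnmb are highest in KO libraries with LGG.

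LGG against IgG in wild-type mice asks how the bacterium changes these cells when Myd88 is present. The 2 alternative activation genes and lysozyme M fell most: Chil3 was 7.87-fold, Retnla 19.7-fold and Lyz2 5.12-fold lower with LGG. Mmp12 was 1.99-fold and Gpnmb 1.57-fold lower, while F4/80 and macrosialin did not pass. On the log2 scale Chil3 changed by -2.98 ± 0.15 (adjusted p = 1.27e-12, limma) and Retnla by -4.30 ± 0.41 (adjusted p = 2.95e-08, limma). Lyz2 changed by -2.36 ± 0.15 (adjusted p = 4.83e-11, limma), Mmp12 by -0.99 ± 0.12 (adjusted p = 9.47e-07, limma) and Gpnmb by -0.65 ± 0.20 (adjusted p = 0.0102, limma). Adgre1 was at 0.04 ± 0.15 (adjusted p = 0.839) and Cd68 at -0.23 ± 0.15 (adjusted p = 0.212, limma). In the 6 libraries alone, where 72.1% of all genes passed, Cd68 passed (adjusted p = 0.00665, limma). With all 24 libraries fitted, 5 of the 7 genes passed, none higher, where 55.5% of all 12749 genes passed in this comparison. Most genes moved here, so a count of 5 in 7 says little about these genes as a group, and the sizes of the changes say more.

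The combination against IgG gave 5 of 7 in WT, 1 higher and 4 lower, where 55% of all genes passed. Chil3 was at -3.05 ± 0.15 (adjusted p = 8.86e-13), Retnla at -4.38 ± 0.41 (adjusted p = 2.29e-08), Lyz2 at -2.31 ± 0.15 (adjusted p = 6.73e-11) and Mmp12 at -0.84 ± 0.12 on the log2 scale (adjusted p = 7.33e-06, limma). Adgre1 rose by 0.45 ± 0.15 (adjusted p = 0.0175, limma), a call that ended without WT combination replicate 3 (adjusted p = 0.0508). Gpnmb was at -0.20 and did not pass, though it did in the 6 libraries alone (adjusted p = 0.00276, limma), where 74.3% of all genes passed. Anti-PD-1 against IgG gave 0 of 7 in WT by limma, where 0.0314% of all genes passed, and 0 by edgeR and by DESeq2. At an unadjusted p under 0.05 by limma were 1 of the 7 and 1028 of all 12749 genes. Fitted on those 6 libraries alone, where 13.8% of all genes passed, 3 of the 7 passed: Chil3 at 0.27 (adjusted p = 0.00385), Mmp12 at 0.30 (adjusted p = 0.00221) and Retnla at -0.68 (adjusted p = 0.000224, limma). The groups did not overlap for these 3 genes. How many of all genes did not overlap was not counted, so this adds nothing to the calls.

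Against anti-PD-1 alone, the combination gave 5 of 7 in WT, 1 higher and 4 lower, where 56.8% of all genes passed, with Chil3 at -3.32 and Retnla at -3.70. Here Adgre1 was at 0.45, a call that ended without WT anti-PD-1 replicate 1 or WT combination replicate 3. Against LGG alone the combination gave 0 of 7 by limma, where 0.0628% of all genes passed, and 0 by edgeR and by DESeq2. At an unadjusted p under 0.05 by limma were 2 of the 7 (Gpnmb and Adgre1, both higher) and 827 of all 12749 genes. In the 6 libraries alone, where 1.14% of all genes passed, Gpnmb at 0.45 (adjusted p = 0.0106) and Adgre1 at 0.41 (adjusted p = 0.0135, limma) passed.

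In the labelled knockout the same bacterium gave smaller falls in Chil3, Retnla and Lyz2 and the opposite sign in Gpnmb. Chil3 changed by -0.76 ± 0.15 (adjusted p = 0.000485, limma) and Retnla by -1.70 ± 0.41 (adjusted p = 0.00337). Lyz2 changed by -0.44 ± 0.15 (adjusted p = 0.0275) and Gpnmb by 0.57 ± 0.20 (adjusted p = 0.0373, limma). Mmp12 at 0.28 ± 0.12 (adjusted p = 0.0899), Adgre1 at 0.09 and Cd68 at 0.09 did not pass. That made 4 of 7, 1 higher and 3 lower, where 32.2% of all genes passed. Mmp12 passed by DESeq2 (adjusted p = 0.0351), where 36.3% of all genes passed. It also passed without KO IgG replicate 3 (adjusted p = 0.0383, limma), where 28.6% of all genes did. Mmp12 and Adgre1 passed without the 3 libraries that stand apart, where 61.4% of all genes passed. The calls of Lyz2 and Gpnmb are the least firm: Lyz2 ended without any 1 of 4 libraries (KO IgG replicates 2 and 3, KO LGG replicates 1 and 3; highest adjusted p = 0.143) and Gpnmb without any 1 of 4 (KO IgG replicates 1 and 2, KO LGG replicates 1 and 3; highest adjusted p = 0.13). Both also ended in the 6 libraries alone, where 21% of all genes passed (adjusted p = 0.131 for Lyz2 and 0.0538 for Gpnmb, limma). With the replicate number as a block, Gpnmb had an adjusted p of 0.0504.

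The combination against IgG in KO gave 5 of 7, 2 higher and 3 lower, where 33.5% of all genes passed. Mmp12 rose by 0.51 ± 0.12 (adjusted p = 0.00285, limma) and Gpnmb by 0.94 ± 0.20 (adjusted p = 0.00116). Chil3 was at -0.66 ± 0.15 (adjusted p = 0.00169), Retnla at -2.20 ± 0.41 (adjusted p = 0.000341) and Lyz2 at -0.41 ± 0.15 (adjusted p = 0.037, limma), the last of which ended under the replicate block (adjusted p = 0.0505) and without any 1 of 5 libraries, KO IgG replicates 2 and 3 and each KO combination library. Cd68 at 0.16 passed in the 6 libraries alone (adjusted p = 0.0405, limma), where 57.8% of all genes passed. Against LGG alone the combination gave 0 of 7 by limma, where 0.275% of all genes passed, and 0 by edgeR and by DESeq2. At an unadjusted p under 0.05 by limma were 0 of the 7 and 879 of all 12749 genes. Without the 3 libraries that stand apart, 3 passed (Gpnmb at 0.28, Adgre1 at -0.25 and Cd68 at 0.24), where 11.3% of all genes passed.

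KO anti-PD-1 libraries varied most. Against IgG, 0 of 7 passed by limma, where 1.8% of all genes passed, and 0 by edgeR and by DESeq2. At an unadjusted p under 0.05 by limma were 3 of the 7 (Mmp12, Gpnmb and Adgre1, all lower) and 1992 of all 12749 genes. Without KO anti-PD-1 replicate 2, where 35.9% of all genes passed, 3 of the 7 passed: Retnla at 1.21 (adjusted p = 0.0137), Gpnmb at -0.75 (adjusted p = 0.0118) and Adgre1 at -0.61 (adjusted p = 0.00408, limma). Without replicate 1, Mmp12 passed at -0.41 (adjusted p = 0.0362, limma), where 5.84% of all genes passed. Leaving out the 3 libraries that stand apart keeps only KO anti-PD-1 replicate 1, and Adgre1 was then at -0.42. The combination against anti-PD-1 in KO gave 4 of 7, 2 higher and 2 lower, where 36.7% of all genes passed: Mmp12 at 0.77 and Gpnmb at 1.45 rose, and Chil3 at -0.64 and Retnla at -2.75 fell. In these 6 libraries alone, where 9.77% of all genes passed, only Retnla passed. Lyz2 and Adgre1 passed as well as the 4 without KO anti-PD-1 replicate 2, where 59.2% of all genes passed. Against KO anti-PD-1 replicate 1 only, without the 3 libraries that stand apart, Lyz2 was at -0.62 and Adgre1 at 0.42.

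**Figure D3:**
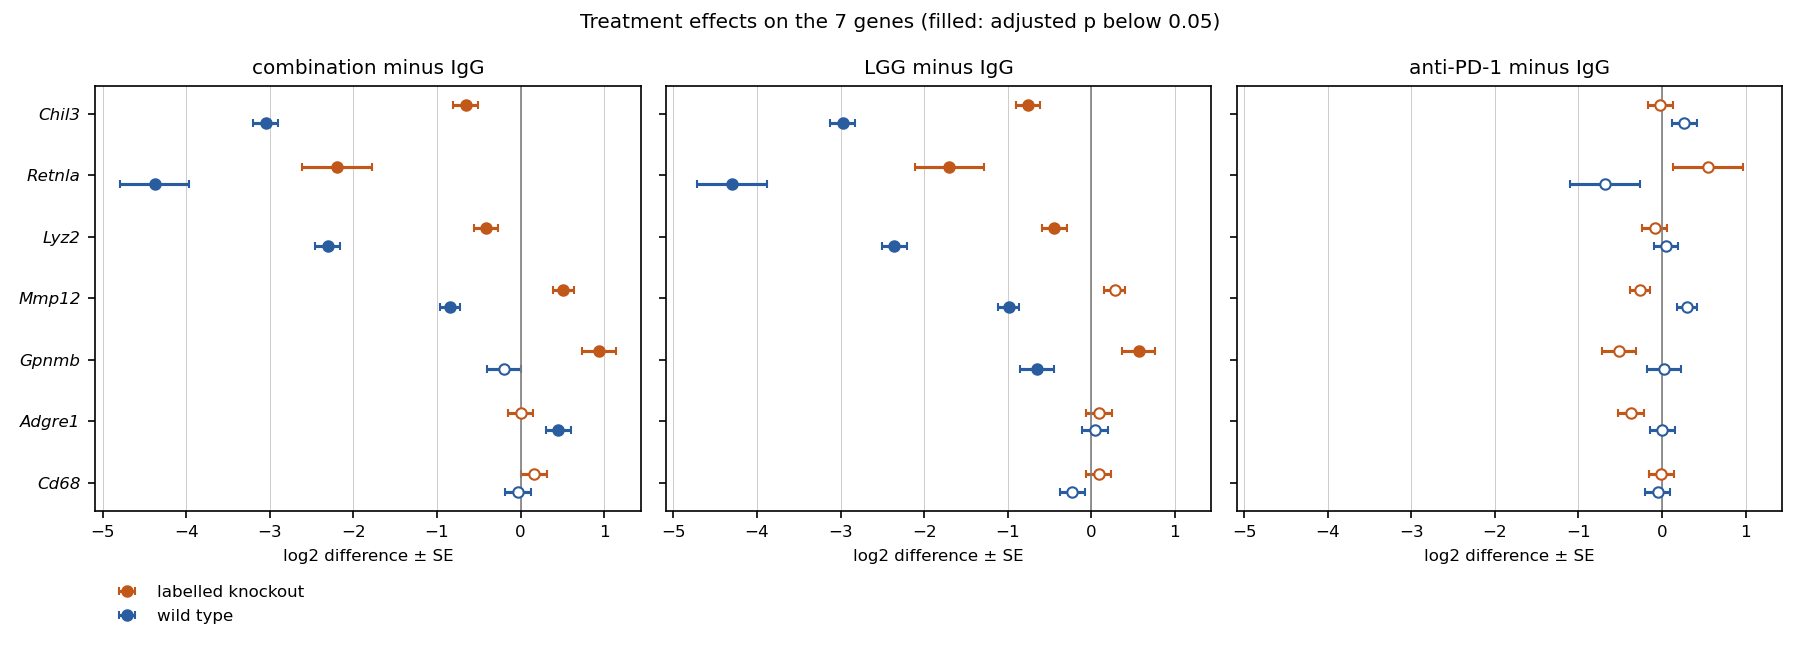
Log2 difference of each treatment from IgG with its standard error, for KO in orange and WT in blue, on 1 shared scale; filled points passed. With LGG, alone or combined, Chil3, Retnla and Lyz2 lie below 0 in both genotypes and further below in WT.

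Whether the effect of LGG differs between genotypes was tested by the interaction, the KO effect minus the WT effect. For LGG alone, 5 of 7 genes passed, all with a KO effect above that in WT, where 34.9% of all genes passed. The interaction was 2.22 ± 0.21 for Chil3 (adjusted p = 7.48e-08, limma), 2.60 ± 0.59 for Retnla (adjusted p = 0.00165) and 1.91 ± 0.21 for Lyz2 (adjusted p = 5.63e-07, limma). It was 1.27 ± 0.17 for Mmp12 and 1.21 ± 0.28 for Gpnmb, both past the threshold. Without the 3 libraries that stand apart Adgre1 also passed, at 0.20 (adjusted p = 0.0191, limma), where 62.8% of all genes passed. For the combination, 5 of 7 passed, all positive, where 33.8% of all genes passed, and Chil3 had 2.39 ± 0.21. In the libraries compared alone, where 57.9% of all genes passed, Adgre1 passed in the other direction, at -0.45 (adjusted p = 1.58e-05, limma). For anti-PD-1, 0 of 7 passed by limma, where 1.9% of all genes passed. By edgeR 0 passed, and by DESeq2 1 passed (Mmp12 at -0.55), where 6.14% of all genes did. At an unadjusted p under 0.05 by limma were 2 of the 7 and 2132 of all 12749 genes. Without KO anti-PD-1 replicate 2, 4 of the 7 passed (Retnla, Mmp12, Gpnmb and Adgre1), where 30% of all genes passed. Without replicate 1 Mmp12 passed, where 5.4% of all genes passed. Leaving out the 3 libraries that stand apart keeps only KO anti-PD-1 replicate 1, and Retnla was then at 1.27 and Adgre1 at -0.43.

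The genotypes were compared within each treatment, KO against WT. Under IgG, 5 of 7 genes were higher and 0 lower in KO, where 39% of all genes passed: Chil3 at 1.38 ± 0.15 (adjusted p = 3.49e-07, limma), Lyz2 at 0.86 ± 0.15, Mmp12 at 1.39 ± 0.12, Gpnmb at 0.65 ± 0.20 and Cd68 at 0.81 ± 0.15. Gpnmb ended without KO IgG replicate 3 (adjusted p = 0.0652). Retnla at -0.61 and Adgre1 at -0.27 did not pass. In the 6 libraries alone, where 62.2% of all genes passed, both did (adjusted p = 6.72e-05 for Retnla and 0.000741 for Adgre1, limma). Under anti-PD-1, 5 of 7 passed, 4 higher and 1 lower (Adgre1 at -0.64 ± 0.15, adjusted p = 0.00362), where 45.7% of all genes passed; in the 6 libraries alone 0 passed, where 6.24% of all genes did. Retnla passed without KO anti-PD-1 replicate 2 (adjusted p = 0.00182, limma), where 68.2% of all genes passed. Gpnmb passed without replicate 3 (adjusted p = 0.00147, limma), where 25.9% of all genes did. Without the 3 libraries that stand apart, which leaves 1 KO anti-PD-1 library, Retnla was at 0.66 and Gpnmb at 0.39.

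Under LGG the gap was wider. Chil3 was 12.1-fold, Lyz2 6.84-fold, Mmp12 6.33-fold, Retnla 3.97-fold, Gpnmb 3.63-fold and Cd68 2.19-fold higher in KO, and Adgre1 did not pass. That made 6 of 7, all higher, where 55.2% of all genes passed. Under the combination 7 of 7 passed, where 58.1% of all genes passed: 6 were higher, among them Chil3 at 3.77 ± 0.15 (adjusted p = 3.24e-14, limma), and Adgre1 was lower at -0.72 ± 0.15 (adjusted p = 0.000489). Every one of these contrasts carries the difference in Y-linked genes, so genotype and sex cannot be told apart.

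**Figure D4:**
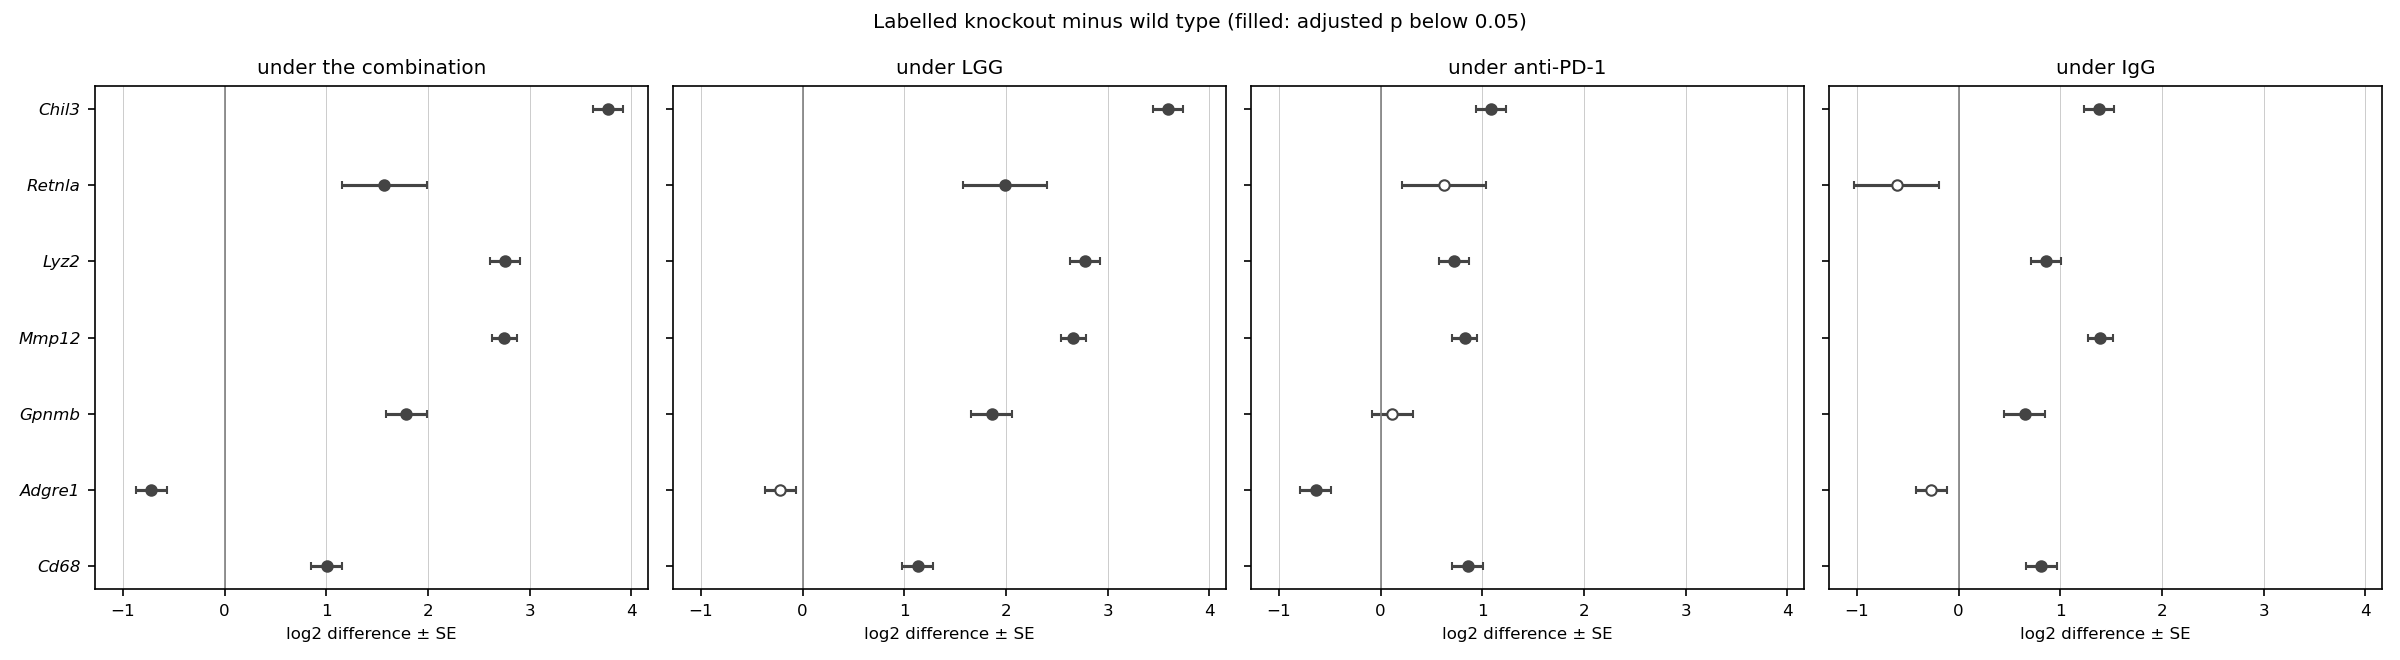
Log2 difference of KO from WT with its standard error under each treatment, on 1 shared scale; filled points passed. Chil3, Lyz2, Mmp12 and Cd68 lie above 0 under all 4 treatments, and these differences are widest under the combination and LGG.

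Other macrophage genes were read from a list of identity markers, of which 23 of 25 were in the table (Vsig4 and Timd4 are not analysed here). With LGG in WT 3 were higher, 17 lower and 3 did not pass, with a median log2 difference of -2.31, against a median of -0.00 and 55.5% past the threshold for all genes. Csf1r, the receptor for the growth factor of macrophages, averaged 3620 with LGG and 18711 with IgG in WT, a difference of -2.37 ± 0.06 (adjusted p = 9.41e-17, limma). C1qa, a complement subunit of tissue macrophages, was at -3.78 ± 0.28, Mertk, which clears dying cells, at -2.31 ± 0.26, and Fcgr1, the Fc receptor CD64, at -2.80 ± 0.12, all lower. The 3 higher genes are not named here. The list's summed level fell less than its median gene, at 103366 to 116746 with LGG and 213307 to 240512 with IgG in WT. The sums in KO were 183941 to 270046 with LGG and 216247 to 232141 with IgG. In KO the same list gave 4 higher, 4 lower and 15 not passing with LGG, with a median of -0.20, where 32.2% of all genes passed. There Csf1r was higher by 0.34 ± 0.06 (adjusted p = 0.000275, limma), Fcgr1 was lower by a log2 difference of -0.95, and C1qa at -0.20 and Mertk at -0.45 did not pass. Without the 3 libraries that stand apart 18 of the 23 passed in KO, where 61.4% of all genes passed.

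The alternative activation list, all 28 in the table, was read the same way. For this and each list that follows, the shares of all genes past the threshold with LGG were 32.2% in KO and 55.5% in WT. With LGG in WT 10 were higher, 16 lower and 2 did not pass, with a median of -1.62; in KO 8 were higher, 9 lower and 11 did not pass, with a median of 0.02. Arg1, which splits arginine, averaged 40720 in KO LGG and 115595 in KO IgG libraries and 1292 in WT LGG and 70741 in WT IgG libraries, differences of -1.50 ± 0.15 in KO and -5.77 ± 0.15 in WT. Mrc1, the mannose receptor, averaged 5470 in KO LGG and 11382 in KO IgG libraries and 41.7 in WT LGG and 8512 in WT IgG libraries, differences of -1.10 ± 0.21 and -7.65 ± 0.21. Pparg, a nuclear receptor of lipid metabolism, fell by 0.93 on the log2 scale in KO and by 4.35 in WT. Il4ra, the receptor of the inducing cytokines, rose by 0.29 in KO and 0.71 in WT, and Stat6 did not pass in either. The list's summed level in WT went against its median, at 655914 to 739265 with LGG and 348975 to 360421 with IgG. Most of the sum with LGG was Ccl22, a chemokine, which averaged 478211 with LGG and 24908 with IgG in WT. The 15 classical activation genes gave 13 higher and 1 lower in KO and 14 higher and 0 lower in WT. Nos2 of the classical list, the inducible nitric oxide synthase, averaged 1652 in KO LGG and 109.9 in KO IgG libraries and 30620 in WT LGG and 224.6 in WT IgG libraries, a difference of 3.89 ± 0.08 in KO and 7.09 ± 0.08 in WT.

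Genes near Gpnmb and Mmp12 in role were read from 2 further lists. Of 29 lysosome genes, 2 were higher, 20 lower and 7 did not pass with LGG in WT (median -1.04), and 5 were higher, 3 lower and 21 did not pass in KO (median 0.01). Tfeb, which switches on lysosome genes, was at -0.19 ± 0.18 in KO and did not pass, and at -2.27 ± 0.18 in WT (adjusted p = 2.32e-09, limma). Mitf, a related factor, was at 0.36 ± 0.13 in KO and -1.02 ± 0.13 in WT, both past the threshold. Of 15 metalloproteinase and inhibitor genes, 8 were higher and 4 lower in WT, and 9 were higher and 1 lower in KO. Mmp14, a membrane metalloproteinase, rose by 2.05 ± 0.21 in KO and 1.08 ± 0.21 in WT, and Mmp13, a collagenase, by 0.68 in KO and 2.93 in WT. Mmp8, another collagenase, rose by 0.34 in KO and was lower in WT at -1.78 ± 0.07 (adjusted p = 2.48e-14, limma). The list thus held genes that moved against Mmp12 in WT and genes that moved with it.

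**Figure D5:**
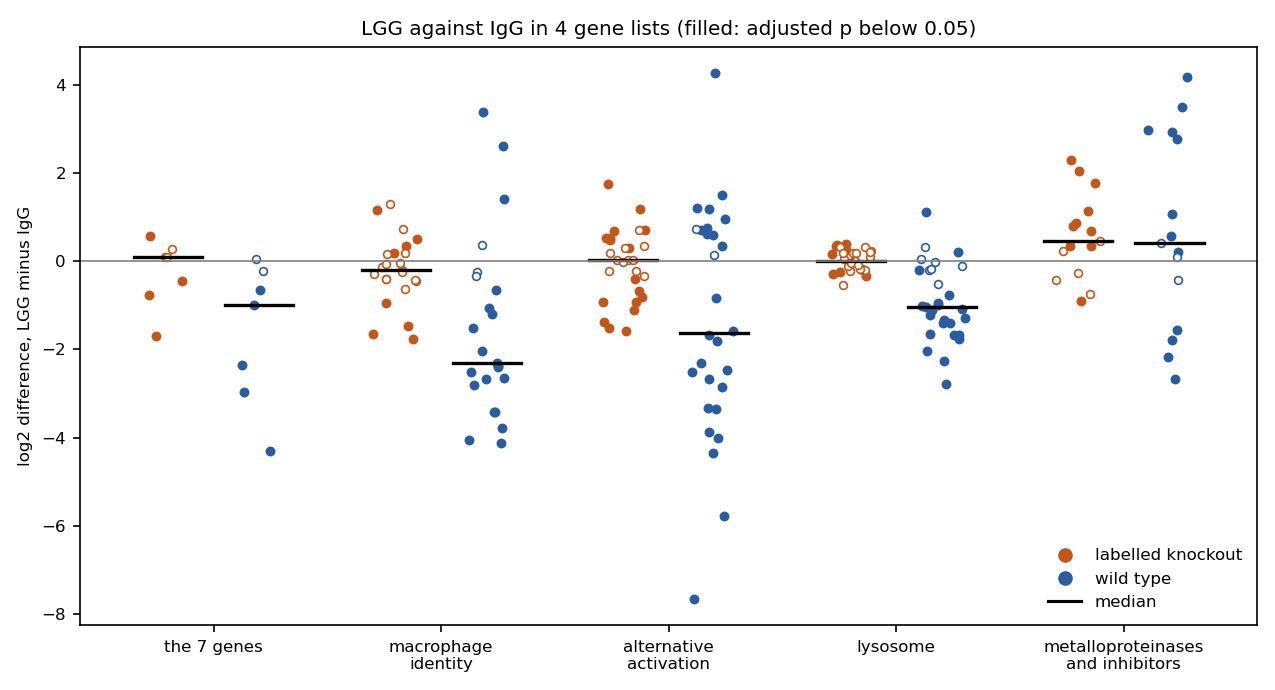
Log2 difference of LGG from IgG for the 7 genes and for 4 gene lists, KO in orange on the left and WT in blue on the right of each list, 1 point per gene, with the median as a black line and filled points for genes that passed. In WT the macrophage identity, alternative activation and lysosome lists have medians below -1, and in KO their medians lie near 0.

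Markers of other cell types moved with LGG too. The 10 T cell genes summed to 4695 to 5647 normalised counts in KO LGG and 1490 to 1571 in KO IgG libraries, and to 14339 to 15447 in WT LGG and 13187 to 13934 in WT IgG libraries. The 5 natural killer genes in the table summed to 7823 to 13129 in KO LGG and 2496 to 2951 in KO IgG libraries, and to 39696 to 46520 in WT LGG and 24417 to 26366 in WT IgG libraries. Both sums were higher with LGG in both genotypes and lower in KO than in WT. Of the T cell genes 10 were higher in KO and 3 higher and 3 lower in WT, and of the natural killer genes 5 were higher in KO and 3 higher and 2 lower in WT. The 5 eosinophil genes in the table summed to 4864 to 5671 in KO LGG and 10527 to 11651 in KO IgG libraries, and to 971.5 to 1003 in WT LGG and 9911 to 10559 in WT IgG libraries. This sum was lower with LGG in both genotypes, with 1 gene higher and 1 lower in KO and 3 lower in WT. Most of that sum is Ear2, one of the 3 genes nearest to Retnla. The 17 dendritic cell genes in the table summed to 249327 to 395684 in KO LGG and 224850 to 241973 in KO IgG libraries, and to 326345 to 376821 in WT LGG and 230965 to 257939 in WT IgG libraries. Of these, 10 were higher and 1 lower in KO, and 8 were higher and 4 lower in WT. Zbtb46 rose by 1.01 in KO and 2.43 in WT, and Flt3 by 2.52 and 2.53. The monocyte list gave 4 higher and 2 lower of 9 in KO and 3 higher and 2 lower in WT, and the neutrophil list 5 higher and 1 lower of 9 in KO and 3 higher and 4 lower in WT. The 5 mast cell and basophil genes in the table summed to 1472 to 1641 in KO LGG and 457.2 to 488.3 in KO IgG libraries, with 5 higher in KO and 1 higher in WT. Of the 6 B cell genes in the table, 5 were higher in KO, and 3 were higher and 1 lower in WT. Of the 3 epithelial and stromal genes, 1 was higher and 1 lower in KO and 2 were lower in WT. No marker in these lists was at 0 in a whole group. The part of these cells in the results above was not tested.

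The genes differed in how alike their patterns were, measured as the root mean square difference of their centred log2 values over 24 libraries, where a smaller value is closer. Chil3 and Lyz2 were closest to each other (0.46), followed by Gpnmb and Cd68 (0.50) and Mmp12 and Gpnmb (0.54), while Retnla and Adgre1 stood furthest apart (1.98). The measure also depends on how much each gene varied. The root mean square deviation from a gene's own mean was 1.75 for Retnla, 1.68 for Chil3, 1.23 for Lyz2 and 1.06 for Mmp12. It was 0.73 for Gpnmb, 0.51 for Cd68 and 0.34 for Adgre1. Genes that vary little can lie close without a shared pattern. Among all genes tested Lyz2 was nearest to Ccl6 (0.14), Cebpa (0.15) and Lpl (0.16), Chil3 to Fam198b (0.22), Snx24 and Ryr1, and Mmp12 to Stac2 (0.25), Cpeb1 and Lhfpl2. Gpnmb was nearest to Oit3 (0.20), Sgk1 and Dennd2a, Retnla to Cebpe (0.50), Slamf9 and Ear2, Cd68 to Slc8b1 (0.14), Spsb4 and Rilpl2, and Adgre1 to Fnbp4 (0.12), Esco1 and Lacc1. These values share their libraries and depth, and they carry no test.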

How the data were processed

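The authors deposited 1 table of normalised counts for 24 libraries, a signal in which every count was scaled by its library's own factor. The submitters' processing notes name STAR 2.4.0 for alignment to mm10, HTSeq 0.6.1 for counting and DESeq2, with no version, for normalisation. Dividing each library's values by its smallest step returned whole reads for 100% of values within 0.001, and edgeR 4.0.16 and DESeq2 1.42.0 were run on these as alternatives. The depth is the sum of those reads over listed genes, 24531528 to 49272593 per library; genes that are not listed add nothing to it.

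Differences were tested with limma 3.58.1 (R 4.3.3) on log2(value + 1), keeping genes whose mean was 10 or more, which left 12749. Each group had 1 mean, all 24 libraries shared 1 estimate of the spread, and empirical Bayes moderation was robust and allowed a trend. A difference on this scale understates the change of low genes. P-values are two-sided, adjusted by Benjamini and Hochberg over all 12749 genes within each of 17 comparisons, and a gene passed below 0.05. Errors after log2 differences are standard errors.

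The 7 genes and the lists were chosen with earlier results of these data known. Genes named beyond the 7 were drawn from the 4 most abundant of each list and a set that the roles of the 7 ask about. Others came from the 3 genes with the nearest pattern and the 10 most abundant genes, except for gene models and clones. Not every gene in these sets is named, and Ddx3y was added after its values were seen. Alternatives were a pseudocount of 8, no filter, TMM scaling, the compared libraries alone, the replicate number as a block, edgeR, DESeq2 and each library left out. Leaving out the 3 libraries that stand apart was chosen after seeing the data. No library pair agreed within sampling noise. Gene positions and exon lengths are from GENCODE M21.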

Additional observations from a re-analysis of the deposited data

Results flagged for a closer look

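The effect of LGG on 5 of the 7 genes differed between the genotypes, by a test of the difference itself (KO effect minus WT effect, limma over all 24 libraries). In the same test 34.9% of all genes passed for LGG alone and 33.8% for the combination. KO libraries carried Y-linked transcripts, so genotype and sex cannot be told apart. For LGG alone the difference was 2.22 for Chil3 (adjusted p = 7.48e-08), 2.60 for Retnla (adjusted p = 0.00165), 1.91 for Lyz2 (adjusted p = 5.63e-07), 1.27 for Mmp12 (adjusted p = 9.25e-06) and 1.21 for Gpnmb (adjusted p = 0.00229) on the log2 scale. For the combination it was 2.39 for Chil3 (adjusted p = 2.64e-08), 2.18 for Retnla (adjusted p = 0.00659), 1.89 for Lyz2 (adjusted p = 6.72e-07), 1.36 for Mmp12 (adjusted p = 4.14e-06) and 1.14 for Gpnmb (adjusted p = 0.00387). Under LGG alone Gpnmb was at 0.57 in KO, a call lost in several alternative fits, and at -0.65 in WT. Mmp12 was at 0.28 in KO, which did not pass (adjusted p = 0.0899), and at -0.99 in WT.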

How the results depend on the processing

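Of 61 gene-by-comparison values that passed, 47 stayed past the threshold under every setting, and 848 of 877 single checks kept the call; of 58 that did not pass, 809 of 852 checks stayed so, and no called value changed sign. Fits on the compared libraries alone are given with the share of all genes passing in brackets. The genes passing were 3 for WT anti-PD-1 against IgG (13.8%), 2 for WT combination against LGG (1.14%) and 2 for KO LGG against IgG (21%). They were 1 for KO combination against anti-PD-1 (9.77%) and 0 for KO against WT under anti-PD-1 (6.24%). The cause was not tested. DESeq2 gave 1 for the anti-PD-1 interaction, where 6.14% of all genes passed. Without the 3 libraries that stand apart 3 genes passed for KO combination against LGG, where 11.3% of all genes passed. Of the macrophage identity genes 18 passed there for KO LGG against IgG, against 8 with all libraries. The share of all genes passing was 61.4% in that setting and 32.2% with all libraries. Comparisons with KO anti-PD-1, of which that setting keeps 1 library, are not given here. The 877 and 852 single checks above do include them. With 1 library left out at a time the counts ranged from 2 to 4 for KO LGG against IgG, where 26.3% to 37.4% of all genes passed. They ranged from 0 to 3 for KO anti-PD-1 against IgG, where 0.58% to 35.9% of all genes passed, and from 0 to 4 for the anti-PD-1 interaction, where 0.729% to 30% did. Over 84 same-number pairs of libraries r ran from -0.83 to 0.56, with a median of 0.02 and 22 over 0.1. Pairs with different numbers were not measured for reference, so whether replicate numbers pair the samples is not settled. With the replicate number as a block 3 genes passed for KO LGG against IgG and 4 for KO combination against IgG, where 31.2% and 32% of all genes passed. The fit without it gave 4 and 5, where 32.2% and 33.5% of all genes passed, and the counts of the other comparisons did not change.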
